A study of Rattus norvegicus with 12 samples.

Results

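The enzymes described here are 8 that act on glucose and glycogen in the liver. Gpi, Pfkl, Tpi1, Pgam1, Eno1 and Pklr carry out steps of glycolysis, and Gbe1 and Pygl build and break down glycogen. They were chosen by name, as the probe sets whose single gene symbol in the platform annotation was one of these 8. This gave 9 probe sets of the 31099 on the array. The choice was made with earlier results of these data known. A probe set is a group of short probes aimed at one transcript. A probe set counted as measured where its standard deviation (SD) over the 12 arrays was above 0.01 log2, which held for 8 of the 9, for 7 genes, and for 3240 of the 31042 probe sets that are not manufacturer's controls. The single Pfkl probe set, for the liver subunit of phosphofructokinase, held 6.45 log2 on all 12 arrays with an SD of 2.89e-10, so that nothing was learnt about Pfkl.

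Liver RNA came from male Sprague Dawley rats that were 9 weeks old, with a recorded start age of 4 weeks. Each animal had 1 array of an Affymetrix rat expression design. The 4 control rats ate a purified AIN-93G diet with 52.9% corn starch, 20% casein and 7% fat, the 4 rats of the low group ate it with 0.1% wakame powder, and the 4 rats of the high group with 1% wakame powder, all for 28 days. This seaweed, a brown alga, is eaten as food. The series' text states 6 rats per diet housed 3 to a cage, and the cage of each array is not labelled, so that diet and cage cannot be told apart.

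Glycolysis splits glucose into pyruvate, and in the fed liver it turns dietary carbohydrate into the precursors of fat. Glycogen is the liver's glucose store, filled after meals and emptied between them. Several of these enzymes are known to be controlled by transcription. Pklr, the pyruvate kinase of liver and red cells, is the standard example of a gene switched on by carbohydrate, through the transcription factor ChREBP (Mlxipl) bound to a carbohydrate response element (ChoRE). Enzymes such as Tpi1, Pgam1 and Eno1 are present in nearly every cell.

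The sequence upstream of the start of transcription was searched for motifs of these kinds of control. RefSeq promoters of the rat assembly GRCr8 were found for all 8 genes, with 2 starts for Eno1. For Gpi, Pfkl, Pklr and Gbe1 the start used lies inside the annotated span of the gene. Any start farther upstream was not searched. Positions are counted back from the start, with −1 the base next to it. The 250 bases upstream of the Pklr start are shown because they hold a match to the ChoRE pattern, E-box-like motifs set apart by a spacer, in capitals from −168 to −152.

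Pklr, chr2:176841014-176841263, plus strand: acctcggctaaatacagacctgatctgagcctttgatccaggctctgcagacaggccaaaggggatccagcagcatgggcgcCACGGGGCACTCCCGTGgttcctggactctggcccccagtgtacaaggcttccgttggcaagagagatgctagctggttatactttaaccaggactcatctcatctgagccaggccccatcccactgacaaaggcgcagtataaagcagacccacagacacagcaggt

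The ChoRE pattern, searched on both strands, was found in 7 of 33469 rat promoters (0.0209%), and among the 8 enzymes it was found in Pklr alone. The Pklr window held 6 CG pairs, while the windows of the other enzymes held 9 to 25. The next 5 windows are the 100 bases upstream of Gpi, Tpi1, Pgam1, Eno1 (the second of its starts) and Gbe1. They are shown to set these promoters beside that of Pklr. Capitals mark the GC box GGGCGG, the core of sites for Sp1-type factors, and the 2 boxes of Pgam1 overlap.

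Gpi, chr1:95993262-95993361, minus strand: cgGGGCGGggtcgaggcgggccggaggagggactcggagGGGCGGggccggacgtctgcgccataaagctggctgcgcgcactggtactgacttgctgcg
Tpi1, chr4:159305089-159305188, minus strand: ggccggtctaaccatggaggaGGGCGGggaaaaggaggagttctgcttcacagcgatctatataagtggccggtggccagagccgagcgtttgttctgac
Pgam1, chr1:250673052-250673151, plus strand: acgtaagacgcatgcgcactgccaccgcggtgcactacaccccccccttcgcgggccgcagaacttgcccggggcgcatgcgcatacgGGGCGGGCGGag
Eno1, chr5:166003261-166003360, plus strand: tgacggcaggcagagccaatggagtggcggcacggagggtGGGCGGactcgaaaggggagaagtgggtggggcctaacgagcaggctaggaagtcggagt
Gbe1, chr11:22181176-22181275, plus strand: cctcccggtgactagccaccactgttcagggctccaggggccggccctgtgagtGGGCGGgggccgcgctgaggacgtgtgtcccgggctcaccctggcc

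Searched on both strands over 250 bases, the GC box was found at 7 of the 8 genes, all but Pklr, and in 30.5% of all rat promoters. At Eno1 it lay upstream of the second start only. The shares over all promoters are per start, and the 8 genes have 9 starts. Their windows were 54.4% to 71.2% G and C, beside a median of 51.2% over all promoters. The ACGTG core of the hypoxia response element, which also lies within the E-box CACGTG, was found at Pgam1, Gbe1 and Pygl and in 16.6% of all promoters. The E-box itself was found at none of the 8 and in 5.59% of all. These matches describe letters in a window and are no evidence of binding.

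All 7 measured enzymes had lower means in both wakame groups than in control, and none of these differences passed the test. With limma on the 3240 measured probe sets and Benjamini-Hochberg adjustment over all of them, 0 of the 8 probe sets passed an adjusted p of 0.05 for 1% wakame against control, where 54 probe sets (1.67%) passed in all. For 0.1% against control 0 of 8 passed, where 2 (0.0617%) did in all, and for 1% against 0.1% 0 of 8 passed, where none (0%) did. The F-test for any difference among the 3 diets called 0 of 8 and 6 (0.185%) in all. Before adjustment, 5 of the 8 probe sets had a limma p under 0.05 for 1% wakame, all lower, where 18.5% of all measured probe sets had such a p and 10.1% were lower with one. For 0.1% wakame it was also 5 of 8, all lower, where 11.5% of all had such a p and 6.73% were lower with one. Between the doses it was 0 of 8, where 6.76% of all had one and 3.06% were lower with one. In the F-test it was 2 of 8, where 14.2% of all had one. The enzymes were chosen with earlier results of these data known, and Pklr enters with 2 probe sets. The counts here and below therefore describe these probe sets and do not test them as a set against the shares over all.

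All 8 probe sets differed in the negative direction from control at 1% wakame, where 55.1% of all measured probe sets did, and at 0.1% wakame, where 55.9% did. The median difference from control over the 8 was −0.39 log2 at 1% and −0.32 log2 at 0.1%, beside −0.02 and −0.02 over all measured probe sets. Between 1% and 0.1% the median was 0.01 log2, with 2 of 8 negative where 51.0% of all were. Both comparisons with control use the same 4 control arrays, so that their likeness is not independent. The 4 arrays of a diet did not overlap with the 4 controls in 1 of the 8 probe sets at 1%, where 11.3% of all did not and 6.05% were lower without overlap. At 0.1% this was 2 of 8, where 5.86% of all did not overlap and 3.36% were lower without overlap. Between the doses it was 0 of 8, where 3.77% of all did not overlap and 1.94% were lower at 1% without overlap. In whole tissue, fewer cells of a type and less RNA per cell cannot be told apart.

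**Figure D1:**
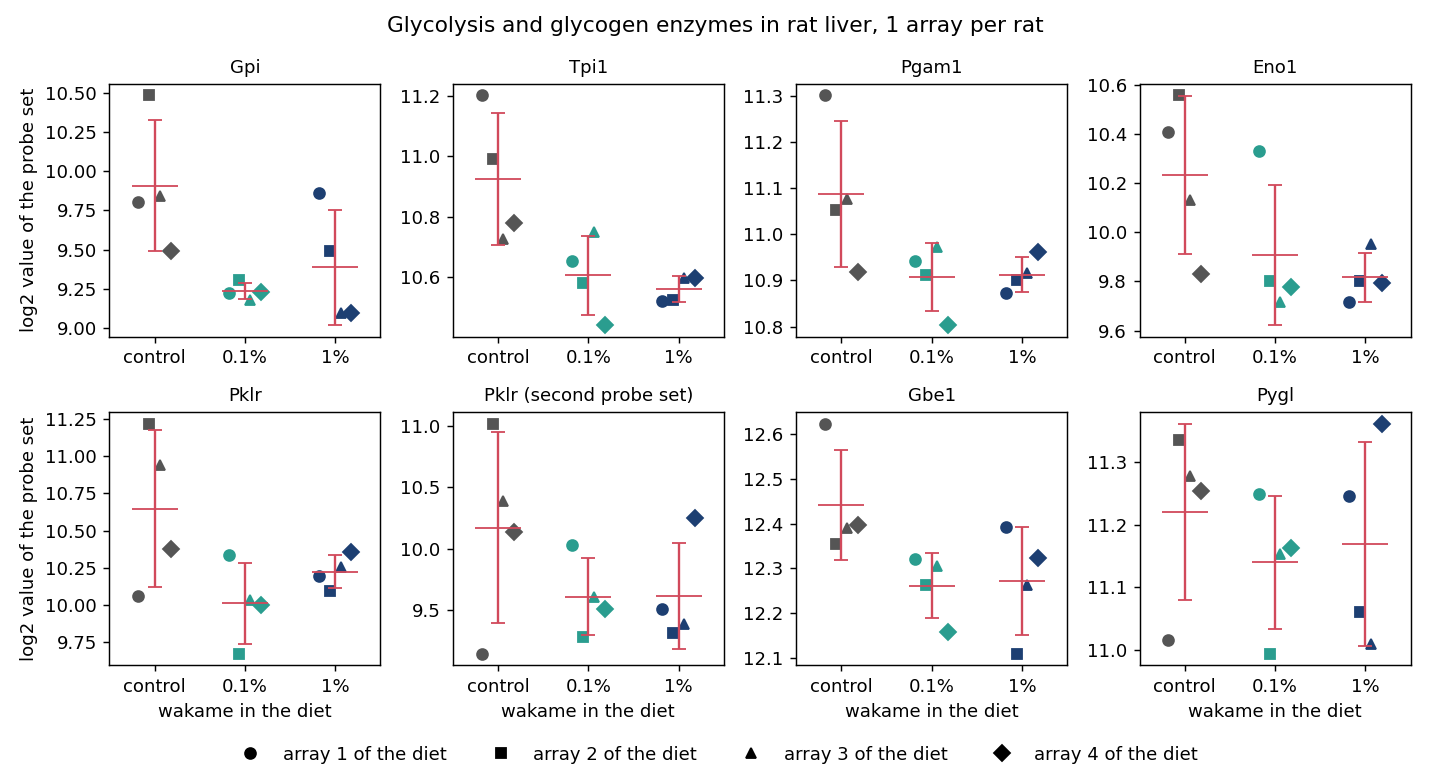
Log2 value of each measured probe set (vertical axis, scaled to each gene) on each array, by wakame in the diet (horizontal axis). Points are single rats, marked by array number, and red bars are the diet mean ± SD (n = 4). The wakame means lie below the control mean in every panel, and the 4 Tpi1 values at 1% lie below all 4 controls.

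Gpi, which turns glucose-6-phosphate into fructose-6-phosphate, showed the largest difference of the main probe sets. The control rats were at 9.81, 10.49, 9.84 and 9.49 log2, in the order of their array numbers, which is kept below. The 0.1% rats were at 9.22, 9.31, 9.18 and 9.23, and the 1% rats at 9.86, 9.49, 9.10 and 9.10. All 4 rats on 0.1% lay below every control, in a band much tighter than the other diets (SD 0.05, against 0.42 in control and 0.37 at 1%). At 1% the rats were spread, with array 1 above 3 of the controls, array 2 just above the lowest control and arrays 3 and 4 below all of them. The difference from control was −0.67 ± 0.22 log2 at 0.1% (SE, n = 4 per diet, limma adjusted p = 0.240), a ratio of 0.628, and −0.52 ± 0.22 at 1% (adjusted p = 0.238). Without control array 2, the highest, the difference at 1% was −0.33.

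Tpi1, triosephosphate isomerase, links the pair of three-carbon products of the split sugar. The controls were at 11.20, 10.99, 10.72 and 10.78 log2, the 0.1% rats at 10.65, 10.58, 10.75 and 10.44, and the 1% rats at 10.52, 10.52, 10.60 and 10.60. At 1% all 4 rats lay below every control, with an SD of 0.04, and at 0.1% array 3 lay just above the lowest control. The difference was −0.37 ± 0.10 log2 at 1% (SE, n = 4 per diet, limma adjusted p = 0.103), a ratio of 0.776, and −0.32 ± 0.10 at 0.1% (adjusted p = 0.255). It had the smallest adjusted p of the enzymes at 1%.

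Pgam1, phosphoglycerate mutase, acts later and shifts the phosphate within phosphoglycerate. The controls were at 11.30, 11.05, 11.08 and 10.92 log2, the 0.1% rats at 10.94, 10.91, 10.97 and 10.80, and the 1% rats at 10.87, 10.90, 10.92 and 10.96. The wakame rats lay between 10.80 and 10.97, while only control array 4 lay in that band. The difference was −0.17 ± 0.08 log2 at 1% (SE, n = 4 per diet, limma adjusted p = 0.256) and −0.18 ± 0.08 at 0.1% (adjusted p = 0.398). Without control array 1, the highest, it was −0.10 at 1% and −0.11 at 0.1%.

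Eno1, enolase, makes phosphoenolpyruvate, the substrate of pyruvate kinase. The controls were at 10.41, 10.56, 10.13 and 9.83 log2, the 0.1% rats at 10.33, 9.80, 9.72 and 9.78, and the 1% rats at 9.72, 9.80, 9.95 and 9.79. At 0.1%, array 1 lay among the controls and the other 3 lay below all of them, and at 1% array 3 lay above the lowest control. The difference was −0.42 ± 0.17 log2 at 1% (SE, n = 4 per diet, limma adjusted p = 0.236) and −0.32 ± 0.17 at 0.1% (adjusted p = 0.525). Without control array 2 it was −0.31 at 1% and −0.22 at 0.1%. The RefSeq table of GRCr8 lists 31 pseudogenes named for Eno1, 13 for Pgam1 and 3 for Tpi1, and whether these probe sets also read such copies was not tested.

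Pklr, which makes pyruvate, was read by 2 probe sets. On the main one the controls were at 10.06, 11.22, 10.94 and 10.38 log2, the 0.1% rats at 10.34, 9.67, 10.03 and 9.997, and the 1% rats at 10.19, 10.09, 10.26 and 10.36. The controls were widely spread, with array 1 below all 4 rats on 1% and inside the range of those on 0.1%, and arrays 2, 3 and 4 above all 8 wakame rats. On the second probe set the controls were at 9.15, 11.01, 10.39 and 10.14, the 0.1% rats at 10.03, 9.29, 9.61 and 9.51, and the 1% rats at 9.51, 9.32, 9.39 and 10.25. There control array 1 was the lowest of all 12 arrays.

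The difference of the main Pklr probe set was −0.64 ± 0.23 log2 at 0.1% (SE, n = 4 per diet, limma adjusted p = 0.333) and −0.42 ± 0.23 at 1% (adjusted p = 0.356). Its SD was 0.53 in control, 0.27 at 0.1% and 0.11 at 1%. The second probe set differed by −0.56 ± 0.36 at 0.1% (adjusted p = 0.605) and −0.55 ± 0.36 at 1% (adjusted p = 0.438). Without control array 2 the main probe set differed by −0.23 at 1%, and without control array 1 by −0.62, so single control rats moved the size in opposite directions.

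Gbe1, the enzyme that puts branches into glycogen, varied little between rats. The controls were at 12.62, 12.36, 12.39 and 12.40 log2, the 0.1% rats at 12.32, 12.26, 12.30 and 12.16, and the 1% rats at 12.39, 12.11, 12.26 and 12.32. All 4 rats on 0.1% lay below every control, and at 1% array 1 lay among the controls. The difference was −0.18 ± 0.08 log2 at 0.1% (SE, n = 4 per diet, limma adjusted p = 0.395), a ratio of 0.882, and −0.17 ± 0.08 at 1% (adjusted p = 0.262). Control array 1 stood apart from the other 3, and without it the difference was −0.12 at 0.1% and −0.11 at 1%.

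Pygl, the liver glycogen phosphorylase that releases glucose units from the store, overlapped between the diets. The controls were at 11.02, 11.33, 11.28 and 11.25 log2, the 0.1% rats at 11.25, 10.99, 11.15 and 11.16, and the 1% rats at 11.25, 11.06, 11.01 and 11.36. The highest and the lowest of the 12 arrays were both on a wakame diet. The difference was −0.08 ± 0.10 log2 at 0.1% (SE, n = 4 per diet, limma adjusted p = 0.817) and −0.05 ± 0.10 at 1% (adjusted p = 0.849), with a 95% interval at 1% from −0.26 to 0.16. At 0.1% it was −0.15 without control array 1, −0.042 without control array 2 and −0.032 without low array 2, and at 1% it ran from −0.12 (without control array 1) to 0.0020. The sign at 1% turned without high array 3 (0.0020) and with the Gapdh 3-prime minus 5-prime difference in the fit (0.010).

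The rats on 1% wakame did not differ detectably from those on 0.1% in any of the 7 enzymes. The difference between the doses was 0.15 log2 for Gpi (95% interval −0.32 to 0.63), −0.05 for Tpi1 (−0.28 to 0.18), 0.01 for Pgam1 (−0.16 to 0.17) and −0.09 for Eno1 (−0.47 to 0.29). It was 0.21 for Pklr (−0.30 to 0.72), 0.01 for Gbe1 (−0.16 to 0.18) and 0.03 for Pygl (−0.18 to 0.24). The limma adjusted p lay between 0.928 and 0.996. The intervals for Gpi and Pklr are the widest and leave room for differences of either sign, so they do not show that the doses act alike.

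**Figure D2:**
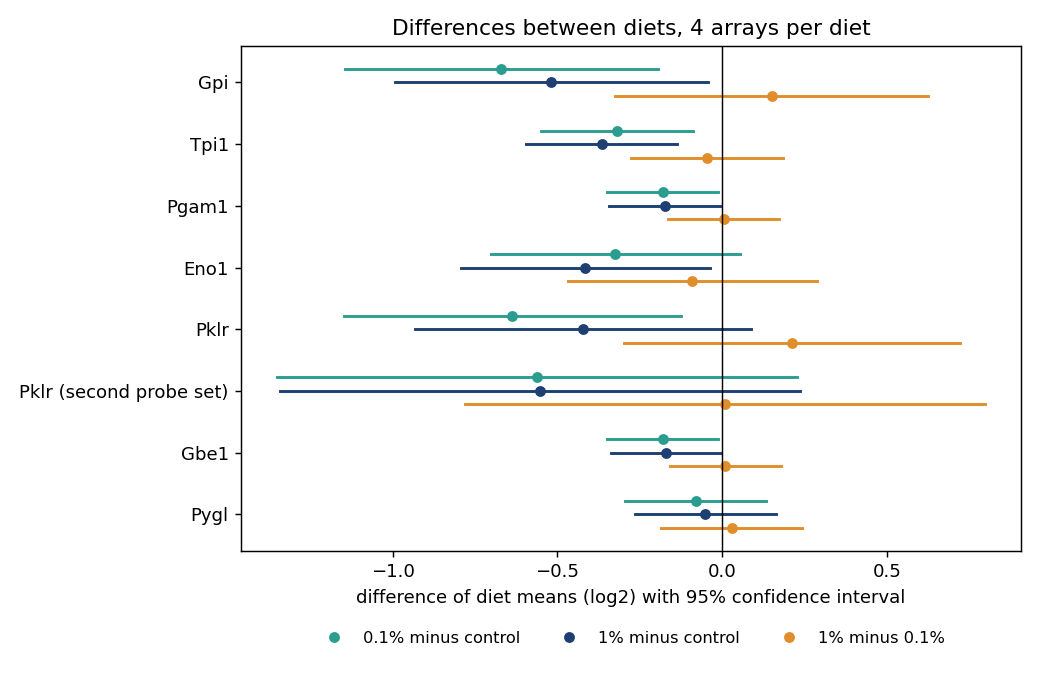
Difference of diet means in log2 (horizontal axis) for each measured probe set (vertical axis), with its 95% confidence interval from the limma fit of all 12 arrays, 4 per diet. Points for both doses against control lie left of 0 for all 8 probe sets, and every interval between the doses crosses 0.

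Because the enzymes lay lower at both doses, the mean of the wakame diets was also set against control, a comparison added after the values had been seen. All 8 probe sets lay lower, where 56.3% of all did, and 0 of 8 had no overlap, where 2.84% of all had none and 1.64% were lower with none. Of the 8 probe sets 0 passed (limma, lowest adjusted p = 0.0927, for Tpi1), where 49 (1.51%) of all measured probe sets did, and 6 had an unadjusted p under 0.05, all lower, where 17.1% of all had one and 9.94% were lower with one. Tpi1 differed by −0.34 ± 0.09 log2, Gpi by −0.59 ± 0.19 (adjusted p = 0.139) and Pklr by −0.53 ± 0.20 (adjusted p = 0.208), or −0.34 without control array 2. Without control array 1 Pgam1 went from −0.18 to −0.11, Gbe1 from −0.18 to −0.11 and Pygl from −0.07 to −0.13, and Pygl was −0.028 without control array 2. All 8 wakame rats lay below the control mean for Gpi, Tpi1, Pgam1, Gbe1 and the main Pklr probe set, 7 of 8 did for Eno1 and the second Pklr probe set, and 5 of 8 for Pygl. Exact two-sided permutation tests of the means were run for each probe set and comparison, 32 in all. The smallest p that 4 against 4 arrays allow is 0.0286, which was reached by Tpi1 at 1% and by Gpi and Gbe1 at 0.1%. The smallest exact p of all 32 was 0.00808, for Tpi1 with both wakame diets together. After Benjamini-Hochberg adjustment over the 32 the smallest was 0.131. With its floor, a test of 4 against 4 arrays could pass 0.05 after that adjustment only if many of the 32 had a small p together. The adjusted values therefore decide little for these tests.

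The difference between the 3-prime and 5-prime control probe sets of Gapdh was 1.05 ± 0.01 log2 in control, 1.08 ± 0.10 at 0.1% and 1.21 ± 0.16 at 1% (SD, n = 4), where 3 of the 4 arrays lay above every control. With that measure in the fit, the difference at 1% was −0.65 for Gpi, −0.33 for Tpi1, −0.52 for Eno1, −0.16 for Pgam1, −0.38 for Pklr, −0.11 for Gbe1 and 0.010 for Pygl. The like difference of Actb was 2.31 ± 0.13, 2.25 ± 0.15 and 2.38 ± 0.07. With it in the fit the difference at 1% was −0.58 for Gpi, −0.38 for Tpi1, −0.43 for Eno1, −0.17 for Pgam1, −0.55 for Pklr, −0.17 for Gbe1 and −0.10 for Pygl. The mean of the measured probe sets was 9.18 ± 0.02 log2 in control, 9.16 ± 0.01 at 0.1% and 9.15 ± 0.02 at 1%. With array medians subtracted Pygl at 1% was −0.029. The part of RNA integrity and of this shift in the results was not tested beyond these fits.

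The correlations between enzymes over single rats ranged widely. Tpi1 and Pgam1 followed each other over the 12 arrays (Pearson's r = 0.91, permutation p = 2.20e-04, adjusted over 21 pairs of genes p = 0.00462; Spearman's rho = 0.87, adjusted permutation p = 0.0111). With the diet means removed r was 0.84, and without the 2 arrays farthest from the median of Pgam1 it was 0.87. Pklr followed Pygl (r = 0.69, adjusted permutation p = 0.0341, rho = 0.79, adjusted permutation p = 0.0346), with r = 0.71 after removal of the diet means and 0.67 without the 2 farthest arrays. The second Pklr probe set and Pygl had r = 0.85. In all, 6 of 21 pairs passed by r and 2 by rho, namely these 2 pairs.

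The other 4 pairs that passed by r all joined Gbe1 or Eno1 with Tpi1 or Pgam1. Gbe1 had r = 0.80 with Tpi1 and 0.81 with Pgam1 (adjusted permutation p = 0.0209 and 0.0249), and without the 2 arrays farthest from the median of Gbe1 these were 0.55 and 0.59. Eno1 had r = 0.74 with Tpi1 and 0.69 with Pgam1 (adjusted permutation p = 0.0341 and 0.0391). Without the 2 arrays farthest from the median of Eno1 these were 0.30 and 0.46, over a narrower range of Eno1. With the diet means removed, Gbe1 had r = 0.62 with Tpi1 and 0.65 with Pgam1, and Eno1 had 0.51 and 0.48. The permutations moved arrays between diets, so differences between diet means enter r and its p. The other 15 pairs did not pass by r. The highest of these were Gpi with Pklr at 0.66, Eno1 with Pklr at 0.60 and Eno1 with Gpi at 0.60, and the lowest were Pygl with Tpi1 at 0.003 and with Pgam1 at −0.08. Several moved without the 2 arrays farthest from the median of the first gene, as Eno1 with Gpi became 0.015, Pgam1 with Pklr went from 0.29 to 0.69, Gbe1 with Pklr from 0.23 to 0.55 and Gbe1 with Pygl from 0.12 to 0.57. Tpi1 with Pklr had r = 0.36, and −0.22 after removal of the diet means. Differences between correlations were not tested. Among the control rats, array 1 was the highest control for Tpi1, Pgam1 and Gbe1 and the lowest for Pklr and Pygl, while array 2 was the highest for Gpi, Eno1, Pklr and Pygl. In 6 of the 7 enzymes, all but Pygl, the controls had the largest SD of the 3 diets, a spread that was not tested. The share of all measured probe sets with this order is not given here. The same control arrays enter every enzyme, so the 6 are not separate observations.

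**Figure D3:**
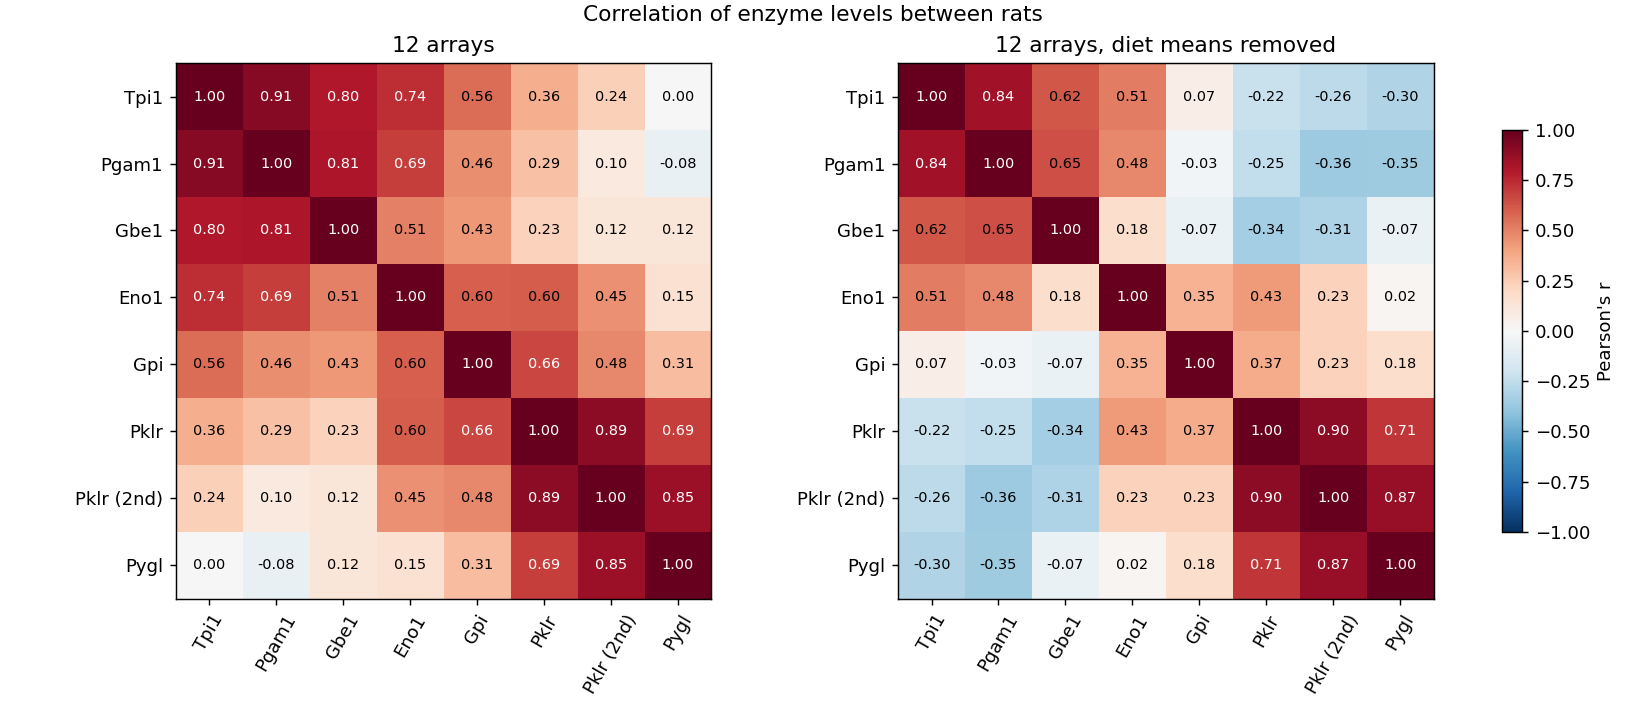
Pearson's r between the measured probe sets over 12 arrays (left) and after the mean of each diet was subtracted (right), with red for positive and blue for negative values. Tpi1 with Pgam1 gives 0.91 and 0.84, Pklr with Pygl 0.69 and 0.71, and Tpi1 with Pklr 0.36 and −0.22.

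As a description of which other genes vary alike, each enzyme's main probe set was standardised over the 12 arrays and the 7 were averaged. Of 2294 other measured genes, the 6 with the highest Pearson's r with this average were Tkfc (0.92), Pgd (0.92), Cxadr (0.88), Cadm1 (0.87), Shmt2 (0.87) and Casp4 (0.86). With the diet means removed, r was 0.90 for Tkfc and for Pgd, 0.75 for Cxadr, 0.83 for Cadm1, 0.86 for Shmt2 and 0.65 for Casp4. The lowest were Nr1d2, a clock repressor, at −0.85, Pon3, a lactonase, at −0.84, and Tm4sf4 at −0.82.

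Tkfc, triokinase, brings a product of fructose into glycolysis. It was at 11.02, 11.39, 10.90 and 10.46 log2 in control, 10.91, 9.99, 10.57 and 10.13 at 0.1%, and 10.39, 10.33, 10.49 and 10.52 at 1%. Pgd makes NADPH in the pentose phosphate pathway, which branches off at glucose-6-phosphate. It was at 10.27, 10.48, 9.48 and 9.22 log2 in control, 9.68, 8.94, 9.31 and 8.49 at 0.1%, and 8.78, 8.68, 8.92 and 9.19 at 1%. All 4 rats on 1% lay below every control for Pgd, and for both genes control array 2 was the highest of the 12. The difference at 1% was −0.97 ± 0.31 for Pgd (limma adjusted p = 0.146) and −0.51 ± 0.22 for Tkfc (adjusted p = 0.248), and neither passed.

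The neighbouring reactions were read from 7 gene lists. Of their 95 genes with a probe set of their own, 48 were measured, 41 of them not among the enzymes above, and 0 passed in any of the comparisons between diets (limma, adjusted p of the 26 named from 0.118 to 0.996). Before adjustment, 5 of the 41 had a p under 0.05 and lay lower at 1%, where 10.1% of all measured probe sets did, and 4 had one and lay higher, where 8.40% did. At 0.1% it was 4 lower, where 6.73% of all were, and 4 higher, where 4.72% were, and between the doses 0, where 6.76% had one. In the glycolysis list 7 of 19 genes were measured and all 7 lay lower than control at both doses, with a median of −0.37 at 1% and −0.32 at 0.1%. The 2 besides the enzymes above were Ldha and Pgk1. Ldha, lactate dehydrogenase, was at −0.22 ± 0.11 and −0.19 ± 0.11. Pgk1, phosphoglycerate kinase, was at −0.09 ± 0.16 and −0.29 ± 0.16, with a second probe set at −0.20 at 1%. The other 12 genes of this list held nearly one value on all arrays. The list of glycolysis control, with 4 of 11 measured, had 1 lower at 1% and 2 at 0.1%. Beside Tkfc it held Pfkfb1, the bifunctional enzyme that sets the level of a phosphofructokinase activator, at 0.94 ± 0.45 and 0.22 ± 0.45, the glucose transporter Slc2a2 at 0.08 and 0.01 and the fructose kinase Khk at 0.04 and −0.005.

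Of the glycogen list 8 of 22 were measured, 7 lower at 1% and 5 at 0.1%, with medians of −0.09 and −0.05. Stbd1, which tethers glycogen to membranes, was at 0.34 ± 0.14 at 1% and 0.30 ± 0.14 at 0.1%. Ppp1r3b, which brings a phosphatase to glycogen and favours its synthesis, was at −0.51 ± 0.38 and 0.11 ± 0.38. The liver glycogen synthase Gys2 was at −0.13 ± 0.09 and −0.12 ± 0.09, and Ugp2, which makes the sugar donor for it, at −0.23 ± 0.30 and −0.39 ± 0.30.

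In the pentose phosphate list 5 of 6 measured genes lay lower at 1% and 4 at 0.1%. Tkt, transketolase, was at −0.36 ± 0.15 at 1% and −0.39 ± 0.15 at 0.1%, Taldo1 at −0.10 and −0.11, and H6pd, which acts in the endoplasmic reticulum, lay higher at 0.41 ± 0.12 and 0.30 ± 0.12. In the list of pyruvate fates 8 of 11 lay lower at 1% and 9 at 0.1%, with Dld, a subunit of pyruvate dehydrogenase, at −0.28 ± 0.08 and −0.24 ± 0.08. Pdhx was at −0.24 and −0.14, and the kinases Pdk4 and Pdk1, which switch that enzyme off, at −0.71 ± 0.45 and −0.64 ± 0.45 and at −0.27 and −0.18. In gluconeogenesis, the opposite pathway, 4 of 6 lay higher at 1% and 4 of 6 at 0.1%. Of all measured probe sets 55.1% lay lower at 1% and 55.9% at 0.1%. Pck1, Slc37a4 and Ppargc1a lay higher at both doses, while Fbp1 was at −0.004 and 0.003 and Pck2 at −0.03 and −0.05. Ppargc1a averaged 6.17 log2, below every array's median of all probe sets. Pck1 was at 0.57 ± 0.22 at 1% and 0.73 ± 0.22 at 0.1%. Its control array 1 was at 11.82 log2, and the other controls were at 12.71, 13.04 and 12.84. The glucose-6-phosphate transporter Slc37a4 was at 0.40 ± 0.14 and 0.34 ± 0.14, the coactivator Ppargc1a at 0.26 and 0.24 and Pc at 0.19 and −0.05. Differences without single arrays were not worked out for the genes of these lists beyond the enzymes.

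Of 15 regulators 6 were measured, 3 lower at 1% and 4 at 0.1%. Srebf1, the insulin-dependent factor of lipid synthesis, was at −1.07 ± 0.37 at 1% and −0.59 ± 0.37 at 0.1%. A second Srebf1 probe set was at −0.59 at 1%. On the main Srebf1 probe set control array 2 was at 12.40 log2, and the other controls were at 10.85, 11.13 and 10.66. Mlxipl, which encodes ChREBP, was at −0.33 ± 0.16 and −0.08 ± 0.16. Hnf4a was at 0.08 and 0.23, and Klf10, a glucose-responsive repressor, at 0.47 and −0.18. The difference of 1% from 0.1% was −0.26 ± 0.16 for Mlxipl and 0.21 ± 0.23 for the main Pklr probe set (SE). Neither passed (limma adjusted p = 0.824 and 0.928). A link between these genes was not tested.

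**Figure D4:**
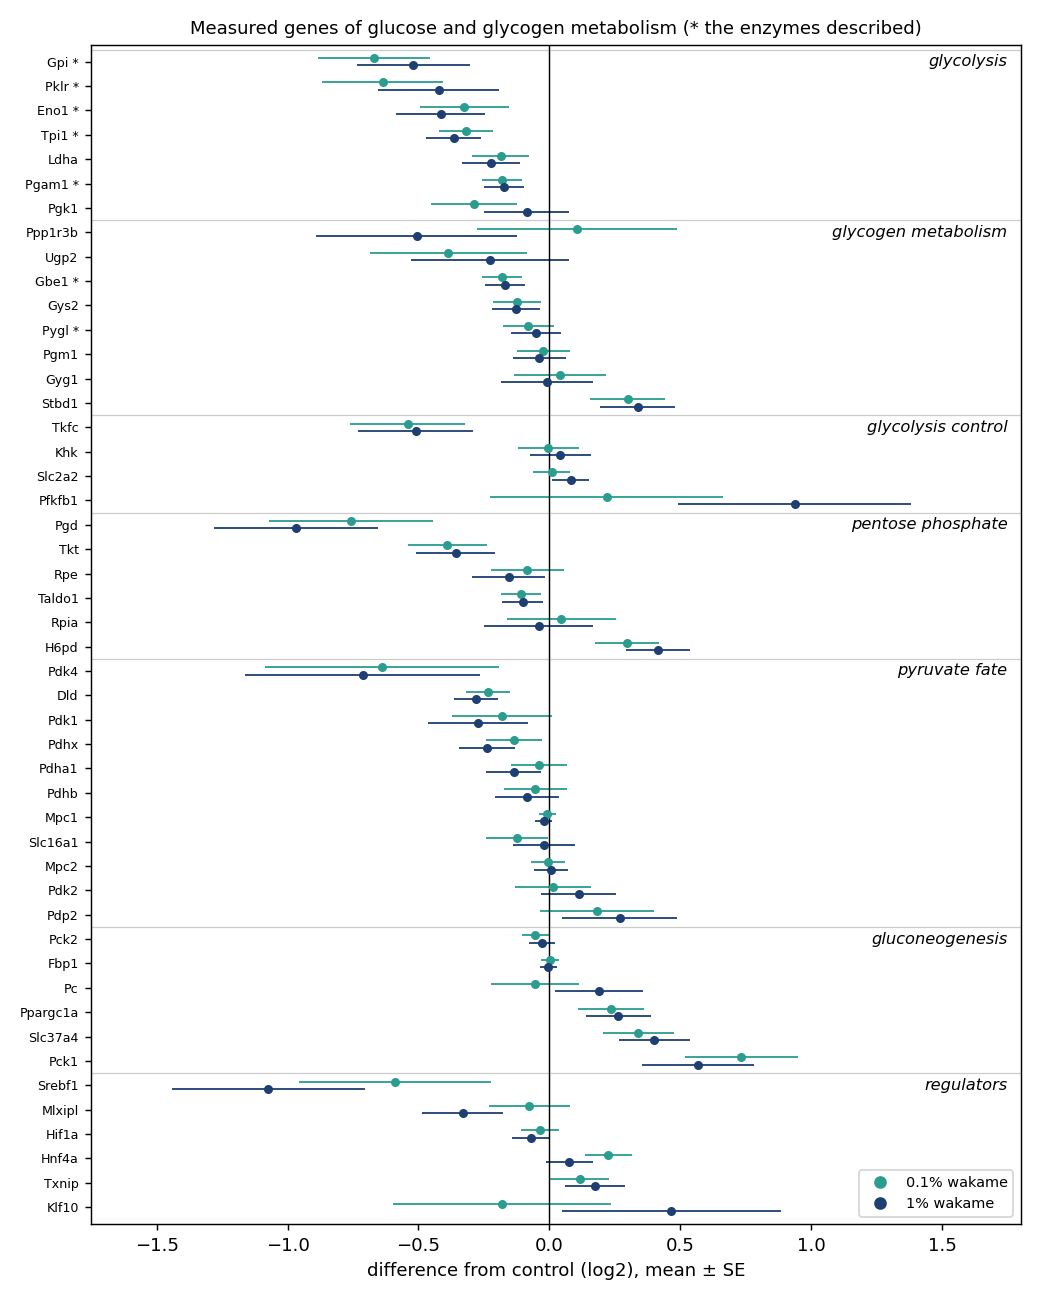
Difference from control in log2 ± SE (horizontal axis) for the 48 measured genes of the 7 lists (vertical axis), at 0.1% wakame (green) and 1% wakame (blue), 4 arrays per diet. All 7 glycolysis genes lie left of 0 at both doses. Of the 6 gluconeogenesis genes, Pck1, Slc37a4 and Ppargc1a lie right of it at both. None of the 48 passed the adjusted threshold.

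Of 11 hepatocyte markers on the array 7 varied enough to count as measured, among them Apoa1, Apob, Cps1 and Hnf4a, which alone does not show that the tissue is liver. They had median differences of 0.02 log2 at 1% and 0.04 at 0.1%. Apob was at −0.004 and −0.01, with an SD over the arrays of 0.0105, just above the limit of 0.01. Cps1 was at 0.02 and 0.04, with a second Cps1 probe set at −0.14 at 1%, and Apoa1 at 0.05 and −0.03. Other markers of this list moved more. Tat was at −1.04 ± 0.48 and 0.77 ± 0.48, Cyp2e1 at 0.67 ± 0.35 and 0.90 ± 0.35 and Ass1 at −0.25 ± 0.19 and −0.07 ± 0.19. Of 7 measured pericentral markers, those of the zone around the central vein, 6 lay higher at both doses, with medians of 0.31 and 0.31. Of these 1 had an unadjusted limma p under 0.05 at 1% and 2 at 0.1%. Others lay within their error, as Rgn at 0.05 ± 0.13 and 0.01 ± 0.13. Of 9 periportal markers 5 lay higher at 1% and 7 at 0.1%, with medians of 0.02 and 0.07. None of the 10 muscle and adipose markers and none of the 5 cholangiocyte markers varied over the arrays. The measured erythroid, Kupffer and leukocyte, and stellate and endothelial markers numbered 2, 7 and 6, with medians at 1% of 0.09, 0.01 and 0.19, and at 0.1% of 0.28, 0.02 and 0.15. The mean log2 value of the measured pericentral markers ran from 9.48 to 10.4 over the control arrays, 10.3 to 10.6 at 0.1% and 9.97 to 10.5 at 1%. That of the hepatocyte markers ran from 11.9 to 12.3, 12.1 to 12.48 and 11.8 to 12.3, that of the periportal markers from 10.7 to 11.3, 11.1 to 11.7 and 10.9 to 11.5. That of the stellate and endothelial markers ran from 8.18 to 8.43, 8.12 to 8.56 and 8.28 to 8.70, that of the Kupffer and leukocyte markers from 8.21 to 8.69, 8.26 to 8.64 and 8.26 to 8.70, and that of the erythroid markers from 8.83 to 9.48, 9.08 to 9.92 and 8.64 to 9.86. Of the 35 measured markers 0 passed at either dose (limma). At 1% 3 had an unadjusted p under 0.05 and lay higher, where 8.40% of all did, and 5 at 0.1%, where 4.72% did. Between the doses 0 passed, and 1, Tat, had such a p and lay lower at 1%, where 3.06% of all did. The difference of Tat between the doses was −1.81 ± 0.48 (limma adjusted p = 0.498). The part of these markers in the results was not tested.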

How the data were processed

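The authors deposited 1 table of log2 values, with a column for each of 12 arrays. That these are log2 rests on their range, 3.15 to 14.6, and ratios given here assume it. Per the labels' protocols, 100 ng of total RNA was labelled with a 3-prime kit. Per the submitters' processing notes, R 2.7.2 was used. The steps of background correction, normalization and summarisation were not given in the sources used here. No probe-level background was used. Precision is limited by having 4 arrays per diet, which the labels do not state to come from separate cages. Of 31042 probe sets without controls, 27802 had an SD of at most 0.01 over the arrays and count as unmeasured, since how such values were made is unknown.

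A mean per diet was fitted with limma 3.58.1 (R 4.3.3) to the other 3240 probe sets on all 12 arrays, with a variance trend, no further normalization, and Benjamini-Hochberg adjustment over all 3240 at 0.05. The script was tested on simulated data. Where a gene had several probe sets, the brightest was its main one. The enzymes and lists were chosen with earlier results of these data known. The named genes were the 8 enzymes, the genes of 7 pathway lists that passed plus 4 per list with the smallest F-test p, 6 genes most and 3 least like the enzymes' average. Alternatives were an SD limit of 0.1 or none, dim probe sets left out, no trend, other scalings, RNA integrity as a covariate, a gene's probe sets averaged, only 2 diets in the fit, a replicate block and each array left out. Promoters are RefSeq's for GRCr8, and genes were matched by identifier.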

Additional observations from a re-analysis of the deposited data

Results flagged for a closer look

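In 2 of the 24 sets of 4 arrays (8 probe sets, 3 diets), 1 array stood far from the other 3 by Dixon's criterion, for which chance gives about 1 in 20 sets. Eno1 on 0.1% wakame was 10.33 log2 on array 1 and 9.72 to 9.80 on the others. Gbe1 in control was 12.62 on array 1 and 12.36 to 12.40 on the others. With the named genes of the neighbouring lists, 102 sets were examined and 4 stood apart, the 2 above included, which is not above 1 in 20. The others were Slc2a2 and Ppp1r3b, both on 0.1% wakame. Slc2a2 was 11.48 on array 2 and 11.73 to 11.76 on the other arrays. Ppp1r3b was 10.34 on array 3 and 10.86 to 10.95 on the other arrays.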

How the results depend on the processing

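The count of enzymes that passed was 0 under each of the 22 alternatives in all 3 comparisons between diets. It was also 0 under the 21 that could be run for the F-test and for both wakame diets together. The unadjusted limma p at 1% was less stable, though that of Tpi1 stayed under 0.05. With quantile normalization it was 0.087 for Pgam1, 0.057 for Eno1 and 0.063 for Gbe1. Without control array 2 it was 0.10 for Gpi, 0.057 for Pgam1 and 0.10 for Eno1. Of the 155 alternative values of the main probe sets against control, 153 kept their sign at 1% wakame (lowest adjusted p = 0.0678, Tpi1 without control array 3) and 155 at 0.1%. The 2 that turned were Pygl at 1%, with the Gapdh integrity measure in the fit (0.010) and without high array 3, where leaving out arrays gave −0.12 to 0.0020. Between the doses 12 of 155 turned, for which the cause was not tested. With the Actb integrity measure in the fit Pklr was −0.0027 and Pygl −0.053. Leaving out 1 array gave −0.0076 to 0.25 for Gpi, −0.10 to 0.0015 for Tpi1, −0.030 to 0.027 for Pgam1, −0.15 to 0.051 for Eno1, 0.10 to 0.32 for Pklr, −0.030 to 0.065 for Gbe1 and −0.034 to 0.082 for Pygl.

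The counts over all probe sets depended on the processing, and the cause was not tested except where the alternative itself changes what is fitted. For 1% wakame the count of 54 became 9 with no SD limit, 28 with only the 2 diets compared, 12 with the replicate block, 4 with the Gapdh and 29 with the Actb integrity measure in the fit, and 7 to 49 with 1 array left out. For 0.1% wakame the count of 2 became 5 with no SD limit, 1 with array medians subtracted, 1 with quantile normalization, 0 with only the 2 diets compared, 0 with the replicate block, and 0 to 8 with 1 array left out. Between the doses the count of 0 became 6 with no SD limit and 0 to 1 with 1 array left out. The labels' replicate numbers were not found to pair the arrays (deviations of same-numbered arrays from their diet means correlated at −0.115 to 0.0924, and 1 of 12 arrays correlated best with its own number), and the replicate block changed no call for the enzymes.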

Other observations

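Gapdh, the glycolytic enzyme between Tpi1 and Pgk1, is read by the array's control probe sets, which were left out of the fit, and its ordinary probe set was unmeasured. The 3-prime Gapdh control averaged 11.59 ± 0.23 log2 in control, 11.39 ± 0.16 at 0.1% wakame and 11.32 ± 0.18 at 1% (SD, n = 4). The middle one averaged 11.26 ± 0.28, 10.99 ± 0.20 and 10.87 ± 0.19, and the 5-prime one 10.54 ± 0.23, 10.31 ± 0.14 and 10.10 ± 0.24. The diets overlapped on the 3-prime probe set, where controls ran from 11.33 to 11.84 and the 1% rats from 11.13 to 11.52. All 3 probe sets thus averaged lower at both doses, as the measured glycolysis enzymes did. They read one transcript and also give the RNA integrity measure used above, so they are not separate from it.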
